A study of Mus musculus with 4 samples.

Results

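The C1q-expressing barcodes of whole mouse kidney were 810 of 34789 barcodes kept from 58660 in 4 single-cell RNA-Seq (scRNA-Seq) libraries. A barcode stands for the contents of 1 droplet. It was kept if it held 200 to 5000 detected genes and under 50% mitochondrial UMIs (unique molecular identifiers, each a captured transcript), and it was selected on its own UMIs of C1qa, C1qb and C1qc, with a bar of at least 5 UMIs and at least 15 per 10000. The values that chose the members are therefore given as a description, and so are the genes that go with them. A single library stood for each condition, WT-ND and WT-HFD for wild type mice and SP-ND and SP-HFD for mutants. All mice were male C3H/HeJ, a strain that carries a loss-of-function allele of Tlr4, and were fed normal diet (ND) or high-fat diet (HFD, 60% of calories from fat) for 8 weeks from 10 weeks of age and harvested at 18 weeks. SP (Sweet Pee, labelled MT) mice are homozygous for a missense mutation of Slc5a2, the gene of the glucose transporter SGLT2, and the transcript level does not check the genotype. The number of mice behind a library is not given in the sources used here. Where 4 values stand in a row, they follow the order WT-ND, WT-HFD, then SP-ND, then SP-HFD. Levels are UMIs pooled over members and scaled to 1000000 UMIs (CPM), ratios are log2 ratios of 2 such levels, and brackets hold 95% intervals. With 1 library per condition there was no replicate check and no test, and all intervals cover counting error only.

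C1q is the recognition molecule of the classical complement pathway, assembled from A, B and C chains, and it binds immune complexes and dying cells. In contrast to most complement proteins, which come from the liver, C1q is made mainly by tissue macrophages and some dendritic cells. Macrophages of the kidney lie in the interstitium between tubules and vessels, depend on CSF1 acting through the receptor CSF1R, take up debris and present antigen on MHC class II. The transcription factors PU.1 and MAF are known to act in macrophages, and IRF factors carry interferon signals.

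The 3 chain genes lie next to each other on chromosome 4 within 18675 bases (GRCm38, chr4:136880129-136898803, minus strand). C1qb, with 3 exons, takes chr4:136880129-136886187. C1qc takes chr4:136889804-136893065 and C1qa, also with 3 exons, takes chr4:136895917-136898803. Since the members were chosen for transcripts of this cluster, the bases before the starts of C1qb and C1qc are shown (RefSeq promoter table of GRCm38.p6, 5′ to 3′ on the minus strand, outside every annotated transcript). C1qb is shown over 250 bases at chr4:136886201-136886450 and C1qc over 99 bases at chr4:136893066-136893164. Capitals mark matches to the motifs searched on both strands, which were GAGGAA (PU.1 type), TGCTGA (Maf type) and GAAANNGAA (IRF type).
C1qb: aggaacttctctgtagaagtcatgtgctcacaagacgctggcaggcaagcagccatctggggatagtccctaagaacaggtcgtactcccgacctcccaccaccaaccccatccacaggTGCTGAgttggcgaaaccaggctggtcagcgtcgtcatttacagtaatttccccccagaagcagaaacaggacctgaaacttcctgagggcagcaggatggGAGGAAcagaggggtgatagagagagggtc
C1qc: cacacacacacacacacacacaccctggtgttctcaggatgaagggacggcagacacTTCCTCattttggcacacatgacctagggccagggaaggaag
In C1qb, TGCTGA lay 131 bases and GAGGAA 30 bases before the RefSeq start. In C1qc, TTCCTC, which is GAGGAA on the other strand, lay 193 bases before the RefSeq start, which is inside the GENCODE gene given above; the bases between the printed stretch and that start lie in an annotated transcript and are left out. The matches did not overlap, and GAAANNGAA was in neither 250-base window. Of 32851 promoters of 250 bases, 23.25% held GAGGAA, 16.08% TGCTGA and 7.129% GAAANNGAA, so a match in a pair of promoters is no more than a description.

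The members held 479470, 999551, 675428 and 1241275 UMIs in total, in 174, 190, 166 and 280 barcodes. Their median depth was 2468, 4783.5, 3512 and 3952.5 UMIs, so WT-ND was the shallowest and WT-HFD the deepest. Mitochondrial UMIs made up 7.22%, 5.10%, 7.49% and 6.46% in the median member and 22.4%, 24.3%, 25.1% and 20.6% in the median of the other kept barcodes. Pairs of libraries shared 54 to 77 barcode sequences among all deposited barcodes, and no member barcode was shared.

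Most C1q transcripts lay in these barcodes, as the bar requires. Summed C1qa, C1qb and C1qc stood at 7944, 7585, 8873 and 9672 CPM in members against 3.13, 14.8, 3.64 and 5.63 CPM in the other kept barcodes. The members, 1.60% to 3.75% of kept barcodes, held 95.3%, 88.2%, 97.0% and 97.8% of all C1q UMIs of their library. WT-HFD stood apart, with 518 barcodes outside the bar that had a C1q UMI, compared with 90, 78 and 140 in the other libraries. T or NK barcodes, which should lack C1q, were at 0, 9.68, 0 and 1.73 CPM. They had at least 3 UMIs of Cd3d, Cd3e, Cd3g and Nkg7 and at least 5 per 10000. They also lay outside the C1q bar and held no UMI of Csf1r, Adgre1 or Cd68. Barcodes with such macrophage RNA were thus left out of them beforehand. The 3 chains kept similar shares in every library: C1qa made up 47.1%, 45.5%, 48.4% and 46.2% of C1q UMIs, C1qb 31.1%, 33.9%, 30.8% and 33.8%, and C1qc 21.8%, 20.5%, 20.8% and 20.0%. UMIs of all 3 chains were found together in 158 of 174, 180 of 190, 164 of 166 and 275 of 280 members.

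Near the bar, the barcodes changed character. The 42 members with 5 to 7 C1q UMIs held Csf1r at 368 CPM and Cd68 at 210.4 CPM, and the 768 members with 8 or more held them at 427 and 382 CPM. Just outside, the 187 kept barcodes with 2 to 4 C1q UMIs had Csf1r at 40.7 CPM and Cd68 at 27.4 CPM. Kap, an abundant transcript of the proximal tubule, was 8125 CPM in the lowest members, 3275 CPM in the rest and 19650 CPM just outside. These are values pooled over libraries that differed in Kap, and members with 5 or 6 C1q UMIs numbered 15, 9, 1 and 4, so library and distance from the bar cannot be told apart here. The 69 barcodes that had 5 or more C1q UMIs but fell short of 15 per 10000 were also rich in Kap (20616 CPM), with Csf1r at 72.7 CPM.

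The members carried the transcripts of mononuclear phagocytes. Csf1r stood at 446, 412, 478 and 401 CPM, and Cd68, a lysosomal membrane protein of macrophages, at 375, 368, 349 and 404 CPM. Neither gene differed by 2-fold between any libraries compared, and both were under 10 CPM in the other kept barcodes. After thinning to 1000 UMIs, a Csf1r UMI was found in 37.1%, 36.0%, 47.9% and 34.1% of members. The T or NK barcodes, whose median depth was 2181, 3356, 2626 and 2836 UMIs, were chosen to hold no Csf1r UMI. They are therefore no comparison for that gene. The invariant chain Cd74, which guides MHC class II molecules, reached 20606, 25776, 25394 and 26758 CPM. A Cd74 UMI was present in 99.4% to 100.00% of thinned members and in 1.01%, 4.69%, 2.56% and 2.15% of thinned T or NK barcodes.

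Transcripts of resident macrophages gave a mixed picture. Lyve1, a hyaluronan receptor of perivascular macrophages, had 0, 0, 0 and 1 UMIs over all members, and Timd4, a phosphatidylserine receptor of long-lived macrophages, 0, 0, 1 and 5. Vsig4, a complement receptor of resident macrophages, was at 0 in every library. Folr2 had 5, 3, 1 and 20 UMIs and Cd163, the haemoglobin scavenger receptor, 3, 1, 8 and 20. Mertk, an engulfment receptor, was 22.9, 7.0, 7.40 and 16.1 CPM, against 21.3, 19.8, 24.7 and 22.3 CPM in the other kept barcodes. Of the 6 surface and enzyme genes used as a resident score further below, Mrc1, the mannose receptor, alone had a mean of at least 50 CPM, at 236, 140.1, 238 and 177 CPM. The list of 12 perivascular and long-lived resident genes, which includes these 6 but not Vsig4 or Mertk, summed to 1646, 1227, 1627 and 1655 CPM in members, led by the selenium carrier Selenop, against 838, 490, 617 and 418 CPM in the C1q-low phagocytes defined below and 1365, 1028, 751 and 750.4 CPM in the other kept barcodes. Of its 5 measured genes, 4 (Mrc1, Pf4, Igf1 and Selenop) were higher in members than in C1q-low phagocytes in all 4 libraries, with a median log2 ratio of 2.33 over the 5. Of the broader macrophage markers, Adgre1 was found in 32.8%, 39.5%, 57.8% and 38.9% of members and Cx3cr1 in 57.5%, 55.8%, 69.3% and 59.3%. Their mean log2 ratios over the other kept barcodes were 7.70 and 7.21. With Lyve1, Timd4 and Vsig4 at or near 0, the barcodes are called C1q-expressing here, and the map of levels sets them beside the other barcodes.

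**Figure D1:**
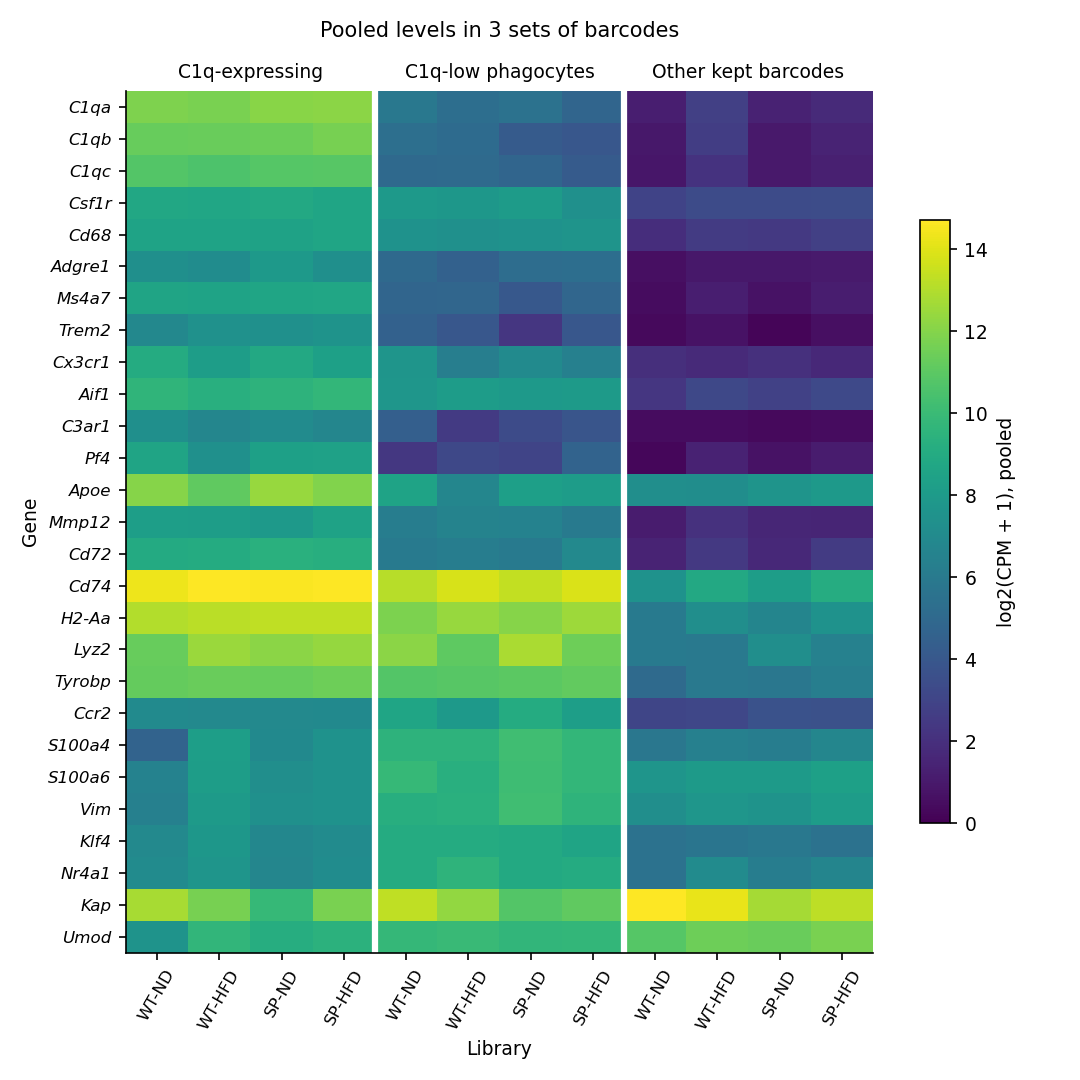
Pooled level of each gene (rows) as log2(CPM + 1) in each library (columns), for the C1q-expressing barcodes, the C1q-low mononuclear phagocytes and the other kept barcodes. Csf1r, Cd68, Ms4a7 and Cd74 stand high in every C1q-expressing column, S100a4 and Ccr2 are higher in the C1q-low phagocytes, and Kap is highest in the other kept barcodes.

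Transcripts of other kidney cells were present among the members and differed between libraries. The 13 proximal tubule genes summed to 10266, 4941, 1991 and 4645 CPM, with none at 0, and Kap alone made up 6937, 3314, 911 and 3414 CPM of this. In the other kept barcodes the same genes summed to 37332, 28026, 13807 and 14402 CPM, and in T or NK barcodes to 12896, 3577, 2486 and 3174 CPM. The 5 genes of the thick ascending limb summed to 425, 1600, 1220 and 1239 CPM, led by Umod, and also had none at 0. In SP-HFD, 1 member held 1283 of 4238 Kap UMIs. Umod was concentrated as well, with 1 member holding 6 of 91, 282 of 822, 106 of 380 and 398 of 858 UMIs. T or NK genes summed to 2.09, 7.0, 2.96 and 0.806 CPM with 9, 5, 8 and 9 of 10 at 0, and neutrophil genes to 12.5, 110.1, 40.0 and 20.9 CPM, led by Csf3r except in WT-HFD, where S100a8 led at 45.0 CPM, with S100a8 and S100a9 at 0 in WT-ND. The monocyte list summed to 261, 492, 339 and 406 CPM, led by Ccr2 in WT-ND and by S100a4 in the others, with Chil3 at 0 in all 4 and Ly6c2 at 0 in 3. Dendritic cell genes summed to 87.6, 120.1, 88.8 and 102 CPM, led by Batf3 or Clec10a, and B or plasma cell genes to 52.1, 83.0, 47.4 and 103 CPM, led by Cd79b or Jchain. Endothelial genes (35.5, 226, 124 and 136 CPM, with none at 0) and fibroblast or mural genes (22.9, 65.0, 50.3 and 99.9 CPM) were lowest in WT-ND. Of 9 measured proximal tubule genes, 6 were past 2-fold lower in WT-HFD against WT-ND and 9 in SP-ND against WT-ND, and 3 and 4 of 4 thick ascending limb genes were past 2-fold higher in the same comparisons. Over all genes, 1.94% and 2.40% were lower and 2.03% and 1.84% higher by 2-fold in these comparisons. The part of these transcripts in the ratios between libraries was not tested. Members rich in another class numbered 5, 16, 2 and 9.

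C1q-expressing barcodes made up 1.60% (1.37 to 1.85) of the kept WT-ND barcodes and 1.96% (1.69 to 2.25) of those of WT-HFD. The shares were 2.46% (2.1 to 2.86) for SP-ND and 3.75% (3.33 to 4.21) for SP-HFD. SP-HFD was the highest, and the WT-ND and WT-HFD intervals overlapped. The denominator mattered, because tubule-rich barcodes differed in number. With tubule-rich barcodes left out of it, the share was 2.86%, 3.02% and 2.97% in the first 3 libraries and 4.47% in SP-HFD. Among mononuclear phagocytes, here the members plus the C1q-low barcodes with Tyrobp and Fcer1g defined below, members were 46.5%, 45.0%, 48.0% and 57.9%, with 53.3 to 62.3 in SP-HFD. By all 3 measures SP-HFD stood above the others and its interval lay above theirs except that of SP-ND among mononuclear phagocytes, which reached 53.4, while the order of the remaining libraries was not the same. Thinned to 1000 UMIs with a bar of 3 C1q UMIs, the share was 1.74%, 1.75%, 2.61% and 3.85%, after 2016, 555, 711 and 689 shallower barcodes were left out.

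**Figure D2:**
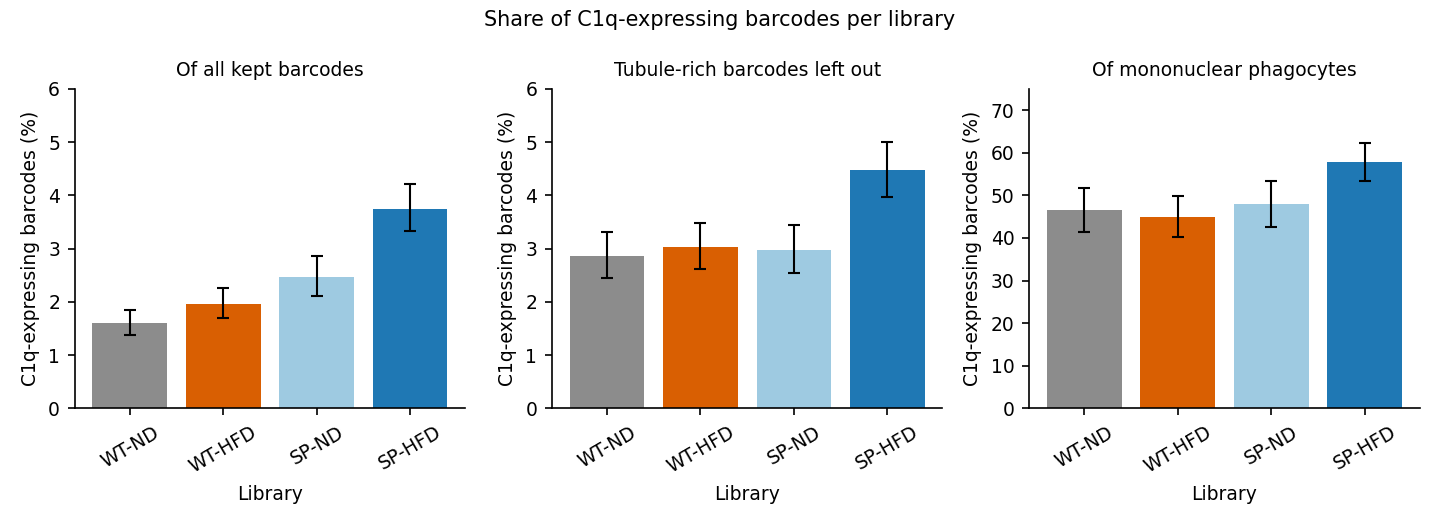
Share of C1q-expressing barcodes (%) in each library, of all kept barcodes, of kept barcodes without tubule-rich ones, and of mononuclear phagocytes, with 95% Clopper-Pearson intervals as error bars. SP-HFD is the highest bar in each panel, and the other 3 libraries lie close together once tubule-rich barcodes are left out.

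The barcodes most like the members were 816 C1q-low mononuclear phagocytes, with at least 3 UMIs of Tyrobp and Fcer1g (signalling adaptors of myeloid cells), C1q below the bar, few S100a8 or S100a9 UMIs and no lymphocyte marker. Against them, as the mean log2 ratio over 4 libraries, the members were higher by 6.30 in Ccl12 and 5.06 in Pf4, a pair of chemokine genes, by 4.23 in Mmp13, a collagenase, by 4.03 in Ms4a7, by 3.94 in Apoe, which carries lipid, and by 3.72 in Trem2, a lipid-sensing receptor. Ms4a7, a macrophage membrane protein, was 378, 364, 398 and 409 CPM in members and 26.6, 27.8, 15.3 and 27.9 CPM in the C1q-low phagocytes. Apoe was 4238, 2245, 5481 and 3860.5 CPM against 374, 109, 312 and 282 CPM. Both genes were separated in all 4 libraries.

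The C1q-low phagocytes were in turn higher in genes of circulating monocytes. S100a4, a calcium-binding protein of motile cells, was 25.03, 299, 127 and 183 CPM in members and 733, 730.4, 1161 and 838 CPM in C1q-low phagocytes. The gene Ccr2, the receptor by which monocytes leave the blood, was 129, 119, 121 and 123 CPM against 398, 251, 532 and 301 CPM. Nr4a1, an orphan nuclear receptor, and Klf4 were lower in members, with mean log2 ratios of -1.99 and -1.77. Lyz2 gave no such order, with 4614, 2159, 7295 and 2858 CPM in C1q-low phagocytes and 2463, 5784, 4616 and 5339 CPM in members. By list, all 8 measured MHC class II genes were higher in members in all 4 libraries (median log2 ratio 0.90), as were 14 of 19 macrophage identity genes (1.21), 15 of 20 lysosomal genes (0.67) and 8 of 11 chemokines (1.47). Over all 2169 genes the median was -0.07, and 495 were higher and 625 lower in all 4 libraries. None of the 11 heat shock genes was higher in all 4 and 3 were lower in all 4.

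Among transcription factors, Maf, a bZIP factor of macrophages and lymphocytes, was 440.1, 281, 434 and 342 CPM in members and 151, 69.1, 120 and 70.7 CPM in C1q-low phagocytes. Irf8, a factor of monocyte and dendritic cell lineages, lay the other way, at 188, 181, 181 and 170 CPM against 283, 387, 297 and 468 CPM. Spi1, the gene of PU.1, was 252, 281, 299 and 321 CPM in members and 247, 238, 284 and 281 CPM in C1q-low phagocytes, a mean log2 ratio of 0.14.

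To describe HFD in WT mice, WT-HFD members were set against WT-ND members. Of 2169 genes with a mean of at least 50 CPM, 44 (2.03%) were higher and 42 (1.94%) lower by 2-fold or more, and the median log2 ratio of all genes was 0.03. Of 11 measured chemokines 3 fell (Ccl8, Ccl12 and Pf4) and 1 rose (Ccl9), with a median of 0.08 and 6 above 0. Of the 2 measured genes of the monocyte list, S100a4 rose and Ccr2 did not pass 2-fold (129 and 119 CPM). S100a4 rose from 12 UMIs in 7 of 174 members to 299 UMIs in 46 of 190, or 25.03 to 299 CPM, a log2 ratio of 3.58 (2.75 to 4.55). In WT-HFD 1 member held 62 of the 299 UMIs, and without the richest member of each library S100a4 was 18.9 and 239 CPM. After thinning to 1000 UMIs, an S100a4 UMI was found in 4.19% (1.70 to 8.45) and 9.14% (5.41 to 14.2) of members, with overlapping intervals. S100a6 (89.7 to 296 CPM) and Vim, the intermediate filament of mesenchymal and myeloid cells (83.4 to 260.1 CPM), rose by 1.72 and 1.64. Both lay below the other kept barcodes in WT-ND (202 CPM of S100a6 and 156 CPM of Vim) and above them in WT-HFD alone (261 and 210.0 CPM). S100a4 also lay below the other kept barcodes in WT-ND and above them in WT-HFD, SP-ND and SP-HFD. Those barcodes held 55.9, 85.1, 74.8 and 108 CPM of S100a4, lowest in WT-ND as well. All 3 genes were also lowest in WT-ND when SP-ND and SP-HFD are considered, and in C1q-low phagocytes the same ratios were -0.01, -0.55 and 0.09.

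Lyz2, lysozyme of myeloid cells, rose in the same comparison from 2463 to 5784 CPM, a log2 ratio of 1.23 (1.14 to 1.32), and was detected in 78.7% and 88.4% of members, or 62.3% (54.5 to 69.6) and 66.1% (58.8 to 72.9) after thinning, where the intervals overlapped. C1q-low phagocytes gave a log2 ratio of -1.10, from 4614 to 2159 CPM. SP-ND and SP-HFD members, at 4616 and 5339 CPM, were close to WT-HFD, so WT-ND stood alone. Dusp2, a phosphatase that limits MAP kinases, rose by 1.33 (87.6 to 220.1 CPM), and Gadd45b, a stress-response gene, by 1.25 (73.0 to 174 CPM).

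Ccl9, a chemokine of myeloid cells, was 33.4, 96.0, 65.1 and 83.8 CPM, a log2 ratio of 1.53 (0.75 to 2.39) for HFD in WT. Among genes that fell in WT-HFD, Ccl12 went from 307 to 102 CPM, a log2 ratio of -1.59 (-1.97 to -1.21), and Pf4 from 382 to 169 CPM, -1.17 (-1.49 to -0.87). In WT-HFD a single member held 49 of the 102 Ccl12 UMIs. Without the richest member of each library Ccl12 was 267 and 53.4 CPM, a log2 ratio of -2.32. Pf4 was 327 and 340.0 CPM in SP-ND and SP-HFD, so that WT-HFD alone was low. A Pf4 UMI was found in 28.2% of WT-ND and 28.9% of WT-HFD members. After thinning it was found in 17.4% (11.9 to 24.0) and 13.98% (9.34 to 19.8), with overlapping intervals. Ifi44 (161 to 74.0 CPM), an interferon-stimulated gene, Gpr65 (234 to 108 CPM), a proton-sensing receptor, and Slfn2 (171 to 80.0 CPM) fell by 1.12, 1.11 and 1.10 on the log2 scale. With the mean of CPM over barcodes the ratios of Ifi44 and Gpr65 were -0.94 and -0.95, under 2-fold. Apoe was 4238 in WT-ND and 2245 CPM in WT-HFD, a log2 ratio of -0.92 that did not pass 2-fold.

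To describe HFD in SP mice, SP-HFD members were set against SP-ND members, and 21 genes (0.968%) were higher and 23 (1.06%) lower by 2-fold, with a median log2 ratio of -0.01. Dnajb1, which alone passed 2-fold among 11 heat shock genes, and Plin2 rose. Dnajb1, a co-chaperone of HSP70, was 365, 453, 176 and 479 CPM in the 4 libraries and rose by 1.44 (1.16 to 1.74), found in 25.3% of SP-ND and 45.7% of SP-HFD members, or 11.0% and 24.6% after thinning. SP-ND was the low library, and all 3 others lay above it. Dnajb1 was also higher with HFD in the other kept barcodes of SP, from 52.6 to 99.5 CPM. In thinned T or NK barcodes of SP-ND and SP-HFD it was found in 28.2% and 37.6%, with overlapping intervals. Plin2, which coats lipid droplets, was 194, 268, 93.3 and 227 CPM and rose by 1.28 (0.89 to 1.70). Here too SP-ND was low, and in C1q-low phagocytes Plin2 was 256, 256, 263 and 301 CPM. Ddit3, a factor of the unfolded protein response, rose by 1.14 (74.0 to 164 CPM, 0.98 in 1 of 11 alternatives) and stood at 64.7 and 122 CPM in WT-ND and WT-HFD.

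Of the genes that fell in SP-HFD, Tlr2, a receptor for bacterial lipoproteins, was 117, 99.0, 136 and 66.9 CPM, a log2 ratio of -1.03 (-1.47 to -0.58), which was under 2-fold in 6 of 11 alternatives (nearest to 0 at -0.84). Il1b, the cytokine interleukin 1 beta, was 1359.8, 1321, 1473 and 824 CPM. SP-HFD was the lowest library, and the log2 ratio of -0.84 (-0.96 to -0.71) against SP-ND did not pass 2-fold. An Il1b UMI was found in 66.7%, 71.1%, 76.5% and 57.9% of members, and after thinning in 55.7%, 50%, 58.3% and 33.7%, while no thinned T or NK barcode had any. In C1q-low phagocytes Il1b was 804, 809.8, 675 and 933 CPM, highest in SP-HFD.

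The linker histone genes Hist1h1c and Hist1h1e passed 2-fold downward in both diet comparisons, whose libraries do not overlap. Hist1h1c was 159, 72.0, 225 and 83.8 CPM, with log2 ratios of -1.14 (-1.62 to -0.65) in WT and -1.43 (-1.80 to -1.06) in SP. Hist1h1e was 154, 74.0, 163 and 79.0 CPM, with ratios of -1.06 and -1.04, and its ratio was under 2-fold in 3 of 11 alternatives in WT (-0.52 at the stricter C1q bar of 10 UMIs) and in 2 of 11 in SP (nearest to 0 at -0.84). Both HFD libraries were low and both ND libraries high, and C1q-low phagocytes had Hist1h1c at 79.9, 58.7, 157 and 79.5 CPM. The other kept barcodes had the same order for Hist1h1c, at 139, 76.8, 171 and 95.1 CPM, and no such order for Hist1h1e, at 37.3, 40.1, 59.5 and 46.1 CPM. Of all 2169 genes, 6 passed downward in both diet comparisons and 3 upward in both, and 61.2% had the same sign.

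The genotype was compared within each diet. In SP-ND against WT-ND, which shares its libraries with the diet comparisons, 40 genes (1.84%) were higher and 52 (2.40%) lower by 2-fold. S100a4 rose by 2.35 (1.47 to 3.35), from 25.03 to 127 CPM. Cebpb, a factor of inflammatory myeloid genes, was 265, 276, 548 and 341 CPM and rose by 1.05 (0.75 to 1.35), with SP-ND the high library. Cxcl1, a chemokine that draws neutrophils, was 106, 164, 213 and 127 CPM and rose by 1.00 (0.53 to 1.49), with both Cebpb and Cxcl1 under 2-fold in some alternatives (down to 0.77 and 0.72). Mmp13, the collagenase, was 202, 115, 75.5 and 131 CPM and fell by 1.42 on the log2 scale (-1.94 to -0.92). Sqstm1, an autophagy receptor, fell from 232 to 96.2 CPM (-1.27), Plin2 from 194 to 93.3 CPM (-1.06) and Dnajb1 from 365 to 176 CPM (-1.05). The Plin2 and Dnajb1 ratios came down to -0.95 and -0.89 under alternatives.

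In SP-HFD against WT-HFD only 9 genes (0.415%) were higher and 6 (0.277%) lower by 2-fold, the fewest of the 4 comparisons, although not at the looser C1q bar of 3 UMIs, where 11 were higher and 38 lower, compared with 18 and 28 for HFD in SP. Pf4 rose from 169 to 340.0 CPM, a log2 ratio of 1.01 (0.75 to 1.27), in 28.9% and 50.4% of members (13.98% and 25% after thinning), and its ratio was down to 0.88 under alternatives. Gadd45b fell from 174 to 63.6 CPM, a log2 ratio of -1.45 (-1.85 to -1.06). The other kept barcodes went the other way, from 80.3 to 94.7 CPM, so SP-HFD members lay below them. Apoe went from 2245 to 3860.5 CPM (0.78) and Mgl2, a lectin of macrophages and dendritic cells, from 217 to 421 CPM (0.95), without passing 2-fold. Neither did S100a4 (-0.71), Il1b (-0.68), the activation marker Cd83 (347 to 197 CPM, -0.81) or Fosb (450.2 to 264 CPM, -0.77). With the mean of CPM over barcodes in place of pooled UMIs the counts were 11 higher and 17 lower, with mitochondrial UMIs out of the total 11 and 11, and after subtracting 5% ambient RNA 8 and 11.

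Ccl8, a chemokine for monocytes and lymphocytes, passed 2-fold in all 4 comparisons (-4.03 for HFD in WT, -1.63 for HFD in SP, 1.18 for genotype on ND and 3.58 on HFD), and the members behind it were few. It was 213, 13.01, 483 and 155 CPM, from 102, 13, 326 and 193 UMIs in 7, 3, 7 and 16 members. In SP-ND 1 member held 285 of the 326 UMIs. Without the richest member of each library Ccl8 was 128, 2.00, 61.3 and 103 CPM, which turned the SP diet ratio from -1.63 to 0.76 and the ratio of SP-ND to WT-ND from 1.18 to -1.07. WT-HFD was the lowest library with or without it. With the mean of CPM over barcodes Ccl8 was 211, 64.0, 289 and 151 CPM, and the ratios were -1.72, -0.94, 0.45 and 1.24, so that those for HFD in SP and for genotype on ND were under 2-fold. The gene lies at chr11:82115185-82116799 on the plus strand, beside Ccl12 at chr11:82101845-82103400, and it was at 0 in C1q-low phagocytes of every library. Hist1h2ap, a replication-dependent histone gene, was likewise carried by 13, 8, 10 and 12 members at 236, 11.0, 129 and 69.3 CPM.

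**Figure D3:**
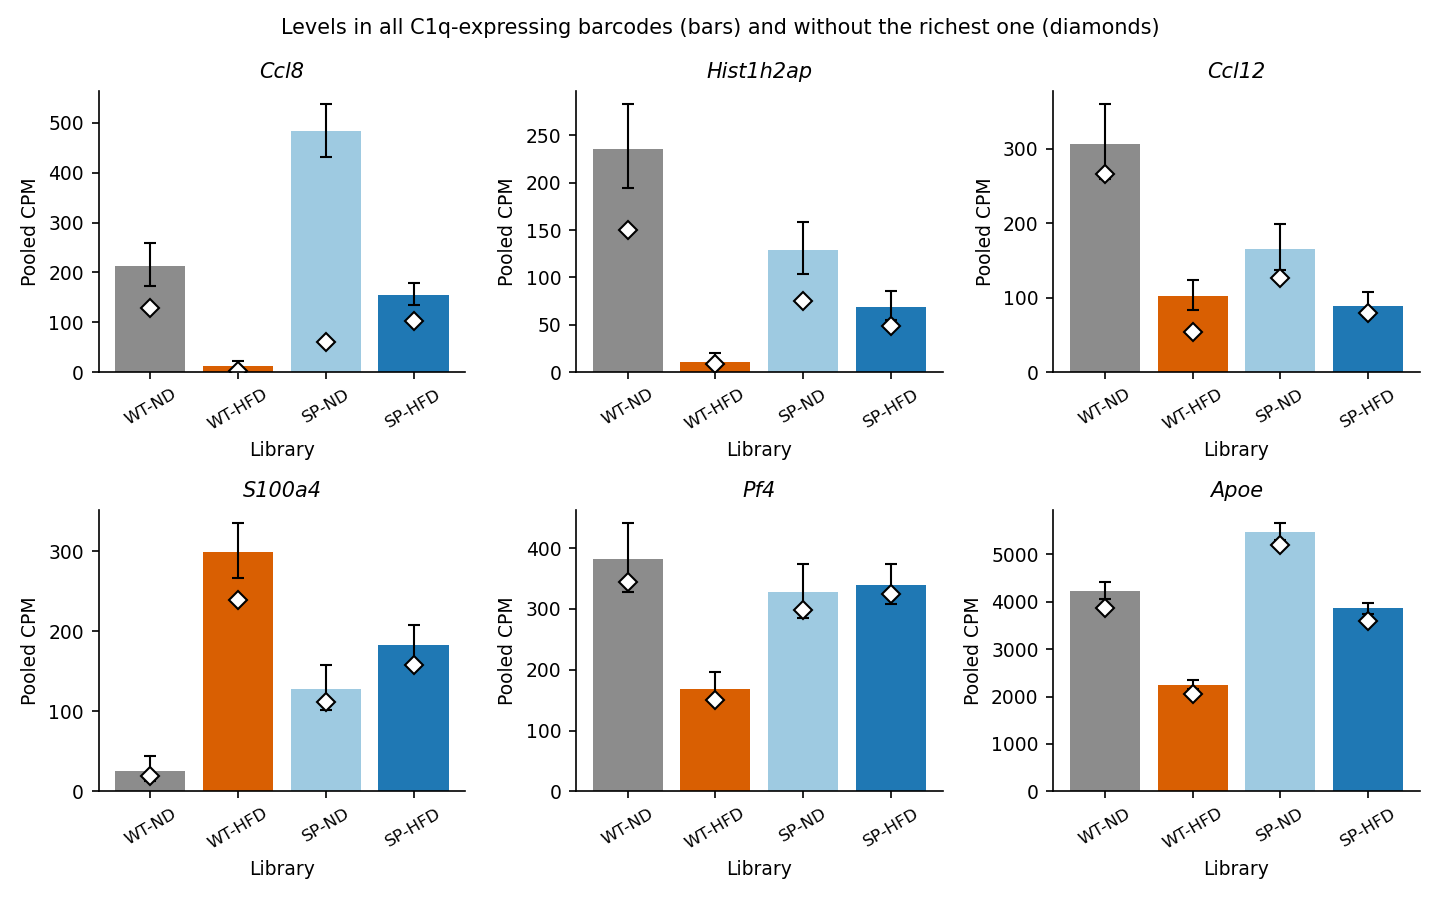
Pooled CPM of Ccl8, Hist1h2ap, Ccl12, S100a4, Pf4 and Apoe in the C1q-expressing barcodes of each library as bars with exact Poisson 95% intervals, and after leaving out the member richest in the gene as diamonds. The Ccl8 bar of SP-ND drops from 483 to 61.3 CPM without 1 member, S100a4 stays lowest in WT-ND, and Pf4 stays lowest in WT-HFD.

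MHC class II genes, which present peptides to CD4 T cells, were high in all libraries, and 7 of the 8 measured were lowest in WT-ND. The exception was Ciita, the transactivator of these genes, at 142, 131, 148 and 126 CPM. H2-Aa was 8334, 9439, 9995 and 10116 CPM, H2-Ab1 5220.3, 6417, 5876 and 6325 CPM, and H2-Eb1 7039, 8217, 8459.8 and 8817 CPM. None of the 8 measured genes passed 2-fold in any comparison, and the median log2 ratio was 0.28 for HFD in WT, 0.06 for HFD in SP, 0.25 for SP against WT on ND and -0.02 on HFD. In the same order 86, 44, 92 and 15 of all 2169 genes passed 2-fold in either direction, and the medians of all genes were 0.03, -0.01, 0.04 and -0.01. For HFD in WT, 7 of 8 were above 0, with H2-DMb1, a peptide loading subunit, at 0.70 (0.43 to 0.98). At the looser C1q bar of 3 UMIs the median was 0.081 for HFD in WT and above 0 for SP against WT on HFD. In C1q-low phagocytes the medians were 0.60, 0.42, 0.24 and 0.07.

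Heat shock transcripts divided the libraries differently. The median over 11 genes was 0.27 for HFD in WT and 0.63 for HFD in SP, -0.45 for SP against WT on ND and 0.05 on HFD. On ND 1 of 11 genes was above 0, and Dnajb1 passed 2-fold downward. Hspa8, the constitutive HSP70, was 1852, 2121, 1359 and 2202 CPM, and Dnaja1, its co-chaperone, 695, 579, 407 and 744 CPM, both lowest in SP-ND. Hspb1, a small heat shock protein, was 117, 250.1, 192 and 260.2 CPM, lowest in WT-ND, and passed 2-fold upward in WT-HFD (1.10). With the mean of CPM over barcodes that ratio was 0.51, and the other kept barcodes held more Hspb1 in every library (202, 267, 256 and 325 CPM). C1q-low phagocytes had medians of 0.55 and 0.53 for HFD in WT and SP, with 11 and 9 of 11 above 0, and of 0.09 and -0.10 for SP against WT on ND and HFD. The suspension was made by warm enzymatic digestion in every library, and its part in stress transcripts was not tested.

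NF-kB genes, the subunits, inhibitors and targets of this inflammatory pathway, had a median log2 ratio of 0.26 for HFD in WT and -0.31 for HFD in SP, with 6 and 1 of 9 above 0. For SP against WT the median was 0.12 on ND and -0.35 on HFD, where 0 of 9 were above 0. Nfkbia, the inhibitor that the pathway induces, was 511, 717, 555 and 512 CPM, highest in WT-HFD. Tnfaip3, an enzyme that restrains the pathway, was 119, 81.0, 105 and 49.1 CPM and passed 2-fold downward for HFD in SP (-1.10), with -0.73 under 30% mitochondrial UMIs. Rel, a subunit, was 81.3, 107, 130.3 and 74.9 CPM. In C1q-low phagocytes the medians for HFD were 0.43 in WT and 0.51 in SP, with 7 and 8 of 9 above 0, and those for SP against WT were 0.03 on ND and -0.17 on HFD, with 5 and 2 of 9 above 0. The sign was thus opposite to that in members for HFD in SP, and the difference between the 2 kinds of phagocyte was not tested. The 15 immediate early genes had medians of 0.05, -0.02, -0.21 and -0.22, and 0 of 15 were above 0 for SP against WT on HFD, where Gadd45b passed 2-fold. C1q-low phagocytes had immediate early medians of 0.27, 0.07, 0.01 and -0.20, with 1 of 15 above 0 for SP against WT on HFD.

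Among interferon-stimulated genes, Isg15, an antiviral ubiquitin-like protein, was 121, 83.0, 42.9 and 59.6 CPM, highest in WT-ND. It passed 2-fold downward in SP-ND against WT-ND (-1.49). The medians over 9 genes were -0.25, 0.37, -0.45 and 0.27. With a filter of 20 CPM, which lets in more genes, the median for HFD in WT was lower still. C1q-low phagocytes had medians of -0.685, -0.256, 0.126 and 0.271, opposite in sign for HFD in SP and for genotype on ND. That difference was not tested. Ifi27l2a was 1337, 955, 976 and 1155 CPM and passed 2-fold nowhere.

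**Figure D4:**
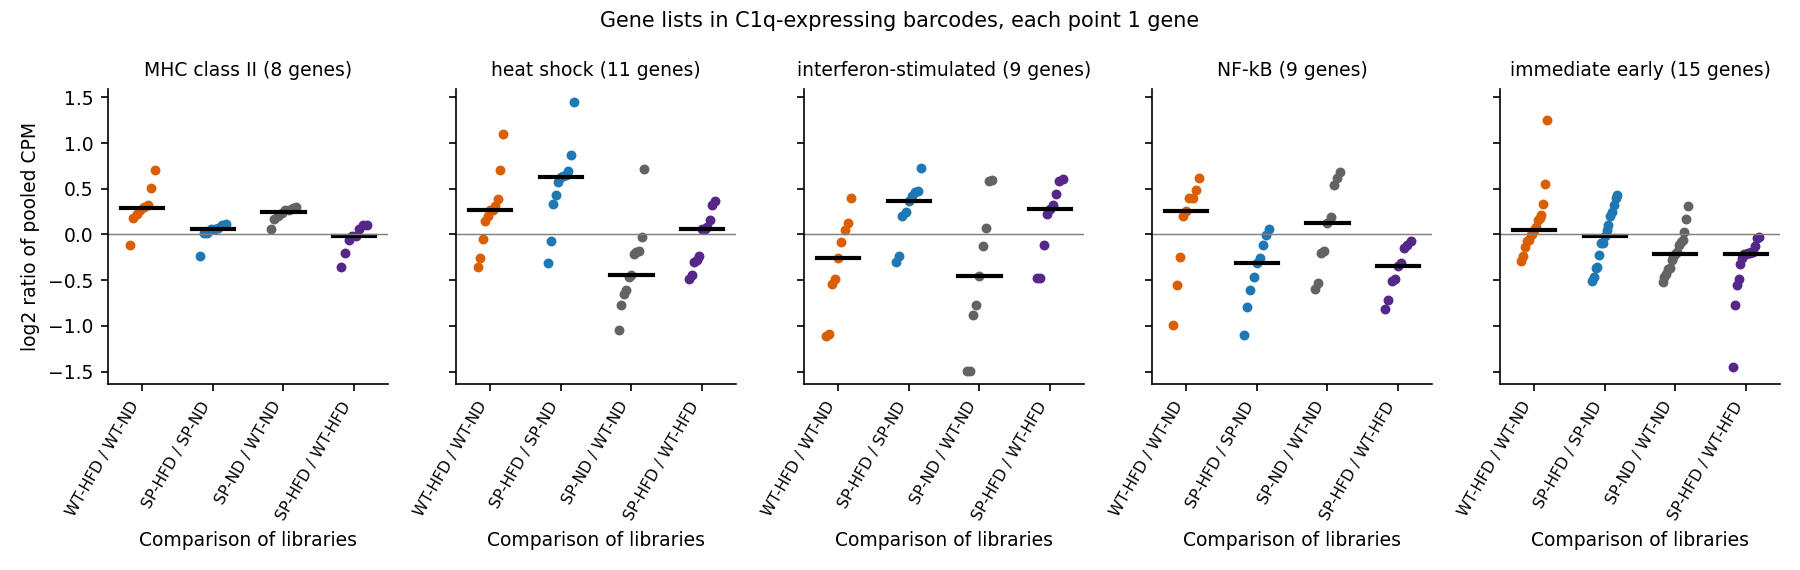
log2 ratio of pooled CPM for each measured gene of 5 lists in the C1q-expressing barcodes, with 1 point per gene, a black bar at the median and 4 comparisons per panel. MHC class II genes all stay within 2-fold, heat shock genes lie mostly above 0 for HFD in SP mice and below 0 for SP against WT on ND, and NF-kB and immediate early genes all lie below 0 for SP-HFD over WT-HFD.

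Lipid-handling and engulfment genes were mixed. Of 11 measured genes of lipid-associated macrophages, 8 were above 0 for HFD in both genotypes, with medians of 0.47 and 0.23. Trem2 was 115, 171, 166 and 188 CPM, lowest in WT-ND, and Lgals3, the lectin galectin 3, 342, 518, 312 and 431 CPM, with both HFD libraries higher. Of the 19 genes listed, 8 had a mean under 50 CPM, Gpnmb and Fabp4 among them. Cd9, a tetraspanin, passed 2-fold upward for HFD in WT (98.0 to 204 CPM, 1.06, down to 0.86 under alternatives), and Nceh1, a cholesterol ester hydrolase, downward (85.5 to 37.0 CPM, -1.21). Nceh1 was 104 and 63.0 CPM in the other kept barcodes of these libraries. Engulfment receptors had a median of -0.42 for HFD in WT and 0.14 in SP, and Mrc1 was lower in both HFD libraries (log2 ratios of -0.75 and -0.43). Of the 9 measured genes of this list, 1 passed 2-fold upward for HFD in WT and 0 downward, against 2.03% and 1.94% of all genes. It was Gas6, a ligand and not a receptor, with a log2 ratio of 1.01. That ratio was under 2-fold in 6 of 11 alternatives (down to 0.74). Cx3cr1, the fractalkine receptor, was 521, 294, 468 and 334 CPM, with ratios of -0.83 (-1.07 to -0.58) and -0.49 (-0.70 to -0.27) and no overlap between ND and HFD intervals. Of 12 cytokine and growth factor receptors measured, 4 were above 0 for HFD in WT and 1 in SP. Tgfbr1, a receptor of TGF-beta, was 273, 150.1, 250.2 and 172 CPM.

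The 20 measured lysosomal genes had medians of 0.03, 0.05, 0.02 and 0.06, near those of all genes, and none passed 2-fold. Ctss, the cathepsin that trims the invariant chain, was 1356, 1375, 1652 and 1446 CPM. Glycolytic genes had medians of 0.43, -0.19, 0.09 and -0.28. Mat2a, which makes S-adenosylmethionine, was 133, 122, 108 and 155 CPM in members and 148, 174, 142 and 171 CPM in the other kept barcodes, and the other measured genes of the S-adenosylmethionine and PRC2 list were Jarid2, Rbbp4 and Rbbp7. None of these 4 passed 2-fold. Tlr4, which is mutant in this strain, had 7, 19, 19 and 25 UMIs.

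Among themselves the members varied along at least 3 sets of genes, described as ranges of UMI counts and not as cell types. Members with at least 2 UMIs of the genes Lyve1, Timd4, Folr2, Cd163, Mrc1 and Cbr2 numbered 26, 35, 30 and 60, or 14.9%, 18.4%, 18.1% and 21.4%, with 12, 14, 15 and 40 of them at the bar and 39, 37, 45 and 65 members 1 UMI below it. After thinning to 1000 UMIs the shares were 4.19%, 2.69%, 5.52% and 3.62%, with overlapping intervals. The order of the libraries changed, although each SP library stayed above the WT library of the same diet. Pooled over libraries, these 151 members had Apoe at 8368 CPM and the other 659 at 2466 CPM, a log2 ratio of 1.76 (1.71 to 1.81). Ccl8 was higher by 5.01 (766 against 23.8 CPM), Igf1, a growth factor, by 2.03, Ccl12 by 1.61, Pf4 by 1.48 and Lyz2 by 1.22, each in all 4 libraries. Of the 634 Ccl8 UMIs, 571 lay in 22 members of this range, and a single SP-ND member held 285 of these 571. Nr4a1 was 61.7 against 175 CPM (-1.51), and Mmp12, an elastase, was 157 against 352 CPM (-1.17). C1qa was 4142 and 4002 CPM, a difference of 0.05. Tubule transcripts also differed, in both directions. Umod of the thick ascending limb was 1275 CPM in this range and 453 CPM outside it (higher in 3 libraries), and Kap of the proximal tubule was 1734 and 3848 CPM and Slc22a6 30.9 and 79.2 CPM (both lower in all 4). Their part was not tested.

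Members with at least 3 UMIs of the cell cycle list numbered 17, 52, 30 and 63, or 9.77%, 27.4%, 18.1% and 22.5%. Their median depth was 3964, 6547, 5386.5 and 5329 UMIs against 2407, 4463.5, 3251.5 and 3447 in the others. Thinned, the shares were 4.79%, 4.30%, 3.68% and 3.99%, and the unthinned order was lost. In the 162 members of this range, Hmgb2 of the list held 902 UMIs, Stmn1 367, Mki67 95 and Top2a 87. Hmgb2 thus weighed most among these genes in the choice of the range. Tubb5, a tubulin, was 266 against 87.7 CPM (1.60), Smc4, a condensin subunit, 111 against 37.3 CPM (1.58), and Ccl2, a monocyte chemokine, 194 against 64.4 CPM (1.59), each higher in all 4 libraries. S100a4 was higher by 1.30, and Apoe was 2315 against 4394 CPM (-0.92). C1qa was 3481 and 4274 CPM, a log2 ratio of -0.30. Among tubule transcripts, Egf was 583 against 202 CPM and Slc12a3 134 against 48.7 CPM, each higher in 3 libraries, and Aqp2, a water channel of the collecting duct, 25.1 against 85.6 CPM. Their part was not tested.

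Members with at least 2 UMIs of Ly6c2, Ccr2, Plac8 and Chil3 numbered 12, 32, 23 and 39, or 6.90%, 16.8%, 13.9% and 13.9%, and 1.20%, 1.08%, 1.84% and 1.81% after thinning. Of them 6, 15, 12 and 18 were at the bar, and 35, 34, 19 and 39 members were a single UMI below it. Median depth was 3720.5, 5521.5, 3725 and 5695 UMIs in this range against 2408, 4463.5, 3497 and 3641 in the others. In these 106 members Apoe was 806 CPM, against 4399 CPM in the other 704, a log2 ratio of -2.45 (-2.58 to -2.32). Pf4 was 99.5 against 335 CPM (-1.75), Hpgd, which breaks down prostaglandins, 103 against 337 CPM (-1.71), and Igf1 9.95 against 64.8 CPM (-2.70). Ly6e, a gene of the interferon-stimulated list, was 161 against 29.0 CPM (2.47) and Vim 325 against 156 CPM (1.06). Each of these differences had the same sign in all 4 libraries. S100a4 of the monocyte list was 202 against 180 CPM (0.17, -0.13 to 0.46), higher in 2 libraries. Ccl8 was 529 against 113 CPM (2.23), higher in 1 library alone. C1qa, which chose the members, was 3352 against 4179 CPM. Tubule transcripts were lower in this range too, with Slc12a3, the thiazide-sensitive cotransporter, at 16.6 against 87.4 CPM (-2.40) and Aqp2 at 16.6 against 78.1 CPM (-2.24), each lower in 2 libraries, and Car2 at 111 against 381 CPM (-1.78) in all 4. Their part was not tested.

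**Figure D5:**
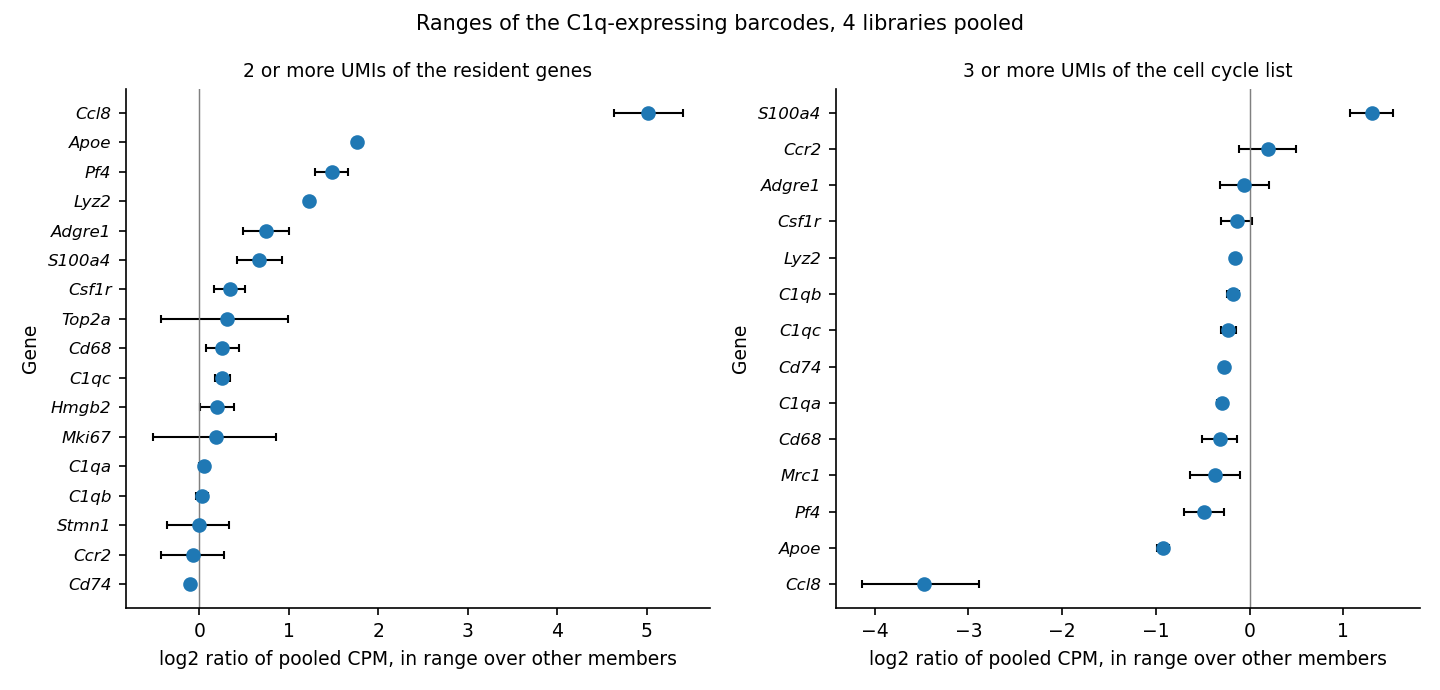
log2 ratio of pooled CPM, with 95% intervals, of members with 2 or more UMIs of the resident genes (left) and with 3 or more UMIs of the cell cycle list (right) over the other members, for selected genes, 4 libraries pooled. Ccl8, Apoe, Pf4 and Lyz2 lie to the right of 0 in the left panel, and Ccl8 and Apoe lie to the left of 0 in the right panel, while the C1q chains stay between -0.30 and 0.26.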

How the data were processed

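The authors digested whole kidneys, made 10x 3′ v3.1 libraries and deposited Cell Ranger UMI counts per gene and barcode for 4 libraries, without normalization. The deposited counts were whole numbers for 32285 genes, and every barcode held at least 500 UMIs. Cell Ranger 2.1.1 is named in the submitters' processing notes and 6.1.2 in the file headers; the build is mm10. Library totals are 93142028, 115117649, 111617794 and 90728590 UMIs.

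The limits on genes and mitochondrial UMIs are those of the study's methods. The study removed doublets with scDblFinder and by hand, which could not be repeated, so doublets were not removed, and members rich in another class were left out as an alternative. No ambient correction was made in the main values. The members, the gene lists and the comparisons were chosen with earlier results of these data known.

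UMIs were summed over members per library and scaled to CPM, with exact Poisson intervals. Log2 ratios have exact conditional binomial intervals and shares Clopper-Pearson intervals, all at 95%. UMIs of a gene that clump in a few members vary more than these intervals state. A gene was called past 2-fold at a log2 ratio of 1 or -1, among 2169 genes of at least 50 CPM, with a count of 0 set to 3. UMI counts of transcript 3′ ends were not divided by gene length. Shares of the C1q chains, sums of lists and leading genes of lists set UMIs of different genes side by side as captured.

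Named genes were the 5 markers, the genes of the lists and the 30 genes highest in members over other kept barcodes. For each comparison the 10 highest and 10 lowest ratios among genes of at least 100 CPM were also named. These were at or above the other kept barcodes in the library of the pair where they were higher. Some lay below them in the other library, such as S100a4 in WT-ND (25.03 against 55.9 CPM) and Gadd45b in SP-HFD (63.6 against 94.7 CPM). Genes past 2-fold the same way in both diet or both genotype comparisons were added. Some genes of the lists are not reported here. No p-value was computed. Sequences are from RefSeq (GRCm38.p6), which held 2 of the 3 C1q promoters, and gene positions from GENCODE. Scripts ran under Python 3.11.15 with pandas 2.3.3, scipy 1.17.1 and numpy 2.4.6, and figures were drawn with matplotlib 3.10.9. The calculation of the ratios was run on simulated data, which bears on the arithmetic alone and not on the values given here. Alternatives changed the C1q bar, the limits on barcodes, the scaling, the filter on low values and the members included.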

Additional observations from a re-analysis of the deposited data

Results flagged for a closer look

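Of 1040 genes with a mean of at least 100 CPM, 17 were higher with HFD in WT members and lower in SP members, and 21 the reverse, with both counting intervals away from 0. For the 14 of these that the text's rule names, the value below is the log2 ratio of HFD to ND in SP minus that in WT. With 1 library per condition the difference was not tested.

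Moving up in SP and down in WT were Mmp13, the collagenase (1.60, with -0.81 in WT and 0.79 in SP), the chaperone genes Dnaja1 (1.13) and Hspd1 (0.98), the autophagy receptor Sqstm1 (1.10), the proteasome activator Psme2 (1.04), Gm10260 (0.93), the interferon-stimulated Ifi27l2a (0.73) and Ifitm3 (0.71), and the macrophage marker Aif1 (0.54). Aif1 was 790.5, 624, 740.3 and 849.9 CPM.

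Moving down in SP and up in WT were Spp1 (-1.81), the neutrophil chemokine Cxcl1 (-1.37), Phlda1 (-1.36), the Mediator subunit Med21 (-1.23) and the thioredoxin-binding Txnip (-0.79). Spp1, osteopontin, was 196, 274, 479.7 and 192 CPM in members and 1001, 1341, 1728 and 1854.5 CPM in the other kept barcodes, so members lay below them in every library; its source among members was not tested. The Spp1 ratio for HFD in SP was -1.32 and came down to -0.60 under alternatives, under 2-fold in 4 of 11. At the stricter bar its ratio in WT was -0.085, so that the opposite signs were lost. Hspd1 lay below the other kept barcodes in 3 libraries (254 against 314, 199 against 261 and 161 against 250.01 CPM in WT-ND, WT-HFD and SP-ND), and Sqstm1 in SP-ND (96.2 against 113 CPM).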

How the results depend on the processing

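No paired analysis was possible because each condition had 1 library. The alternatives that left out a gene's richest member or tubule-rich barcodes were chosen after seeing the data. The members numbered 756 under 30% mitochondrial UMIs, 696 with a bar of 10 UMIs and 30 per 10000, and 883 with 3 UMIs and 8 per 10000. Of 32 shares of members, 20 stayed within their counting interval, as did 82 of 104 counts within 1.5-fold, 954 of 960 list medians and 9739 of 10032 gene ratios within theirs, with 290 that moved and 3 reversed. The share of members was 2.28%, 2.72%, 3.84% and 5.24% under 30% mitochondrial UMIs, 1.27% in WT-ND and 1.56% in WT-HFD at the stricter bar, 2.33% in WT-HFD at the looser bar, 1.89% in WT-ND with at least 1000 UMIs, and 2.86%, 3.02%, 2.97% and 4.47% without tubule-rich barcodes in the denominator.

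Counts past 2-fold are given as higher and lower for HFD in WT, HFD in SP, genotype on ND and genotype on HFD. They were 193, 187, 95, 101, 204, 211, 43 and 50 of 4900 genes with a filter of 20 CPM, and 6, 6, 4, 4, 8, 8, 2 and 1 of 517 with 200 CPM; the filter sets how many genes enter. Without each gene's richest member, 15 were lower for HFD in SP and 5 higher for genotype on HFD. Genes lower for genotype on HFD numbered 38 at the looser bar, 17 with means over barcodes, 11 without mitochondrial UMIs and 11 after subtracting 5% ambient RNA.

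At the looser bar, the MHC class II median was 0.081 for HFD in WT and 0.16 for genotype on HFD, the heat shock median 0.066 for HFD in WT, and the immediate early median -0.067 for genotype on HFD, compared with -0.37 at the stricter bar. The interferon median for HFD in WT was -1.02 over 17 genes at 20 CPM. Reversed were Ccl8 without its richest member (0.76 for HFD in SP and -1.07 for genotype on ND) and Hist1h2ap at the stricter bar (-0.059 for genotype on HFD). Apart from filters and left-out members, the cause was not tested.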

Other observations

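Iron and antigen-processing genes of the C1q-expressing barcodes were not described above. Ftl1, the ferritin light chain that stores iron, was 5109.8, 5504, 4396 and 5845 CPM, and Hmox1, which breaks down heme, 200.2, 217, 213 and 275 CPM. Of 6 measured iron and heme genes, 3 were above 0 for HFD in WT and 4 in SP, and none passed 2-fold. Blvrb, biliverdin reductase, was 148, 117, 126 and 181 CPM in members and 30.8, 38.1, 41.8 and 36.7 CPM in C1q-low phagocytes, higher in members in each library. Of 8 measured MHC class I and immunoproteasome genes, 3 were above 0 for HFD in WT, 6 for HFD in SP, 5 for SP against WT on ND and 7 on HFD, with median log2 ratios of -0.11, 0.10, 0.04 and 0.24 and none past 2-fold. On HFD the median was 0.15 in C1q-low phagocytes and 0.48 in the other kept barcodes. B2m, the light chain of MHC class I, was 2326, 2397, 2514 and 2539 CPM.

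Hpgd, the prostaglandin-degrading enzyme, was 200.2, 352, 213 and 331 CPM, with log2 ratios of 0.81 (0.48 to 1.16) for HFD in WT and 0.64 (0.36 to 0.92) in SP, neither past 2-fold. Both HFD libraries were above both ND libraries, as with Lgals3. Timp2, an inhibitor of matrix metalloproteinases, was 138, 137, 209 and 201 CPM, with both SP libraries above both WT libraries and log2 ratios of 0.60 (0.17 to 1.04) on ND and 0.56 (0.25 to 0.87) on HFD. Pycard, an inflammasome adaptor, was 73.0, 98.0, 142 and 162 CPM and had the same order by genotype. These genes were picked after their values were seen.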
